A study of Mus musculus with 30 samples.

Results

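Carbonic anhydrases catalyse the reversible hydration of carbon dioxide to bicarbonate and a proton. In brain, Car2 is the cytosolic enzyme of oligodendrocytes, the cells that make myelin, and is also found in choroid plexus. Car4 is tethered to the outside of the plasma membrane of capillary endothelium and other cells, while Car8, Car10 and Car11 lack the activity and act as binding proteins. Bicarbonate transporters, proton exchangers and lactate carriers work alongside the active enzymes in buffering the tissue. The genes described here were Car2, Car4, Car7, Car8, Car10, Car11, Car12 and Car14, 8 of the 16 mouse carbonic anhydrase genes looked for and found by symbol among the 34871 genes of the deposited table. They were selected on symbol with measured values of these same mice known, above all the KO against WT differences, so those differences are given as a description with no p-value. Where it is said how many of the 8 passed in that contrast, the count is a description too. The lists of other genes used below were also chosen with earlier results of these data known. Their KO against WT counts and p-values are likewise descriptions.

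The brains came from 8-month-old mice of 3 genotypes of Tmem106b, a gene whose product is a membrane protein of lysosomes. There were 10 KO mice (Tmem106b -/-), 10 HET mice (Tmem106b +/-) and 10 WT mice (Tmem106b +/+). Each genotype had 6 mice of cohort 1 and 4 of cohort 2, with as many males as females in each cohort. RNA was taken from the cerebral hemispheres. The labels name no strain, no targeted part of the gene and no meaning of the cohort number. Each library was 1 mouse. Values are log2 RPKM after conditional quantile normalization by the authors, so 1 unit is a doubling, and levels are per gene length. Fitted differences came from a linear model (limma) with genotype, sex, cohort and RNA integrity number over the 23695 genes with a mean deposited value above 0, which all 8 genes passed. A gene is said to pass where its p, adjusted over those genes by the Benjamini-Hochberg method, was under 0.05.

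The active enzymes and the binding proteins differ at the zinc site. In the active enzymes 3 histidines hold the catalytic zinc. The coding sequences around the first 2 of the aligned histidine codons are printed for 7 of the genes to show which keep them, read from the GENCODE M21 transcripts of GRCm38 (the mm10 build), 5′ to 3′ on the coding strand, with those 2 aligned codons in capitals.
Car2: atccagtttCACtttCACtggggctcatct
Car4: gtacagttgCACctgCACtggtcaaatggg
Car7: aagcagctcCACttcCACtggggcaagaag
Car12: gagcagctgCACttgCACtgggggaaccgc
Car14: gcccagctcCACctgCACtggggtcagaga
Car10: gaagaaatcCGGctaCACtttgggagtgag
Car11: agtgaactgCGCctgCTAtttggagctcga
CAC and CAT encode histidine. Car2, Car4, Car7, Car12 and Car14 had a histidine codon at all 3 aligned positions, Car10 at 1 and Car11 at 0. The windows lie at chr3:14895060-14895089 (Car2, plus strand), chr11:84964158-84964187 (Car4, plus), chr8:104547725-104547754 (Car7, plus), chr9:66747638-66747667 (Car12, plus) and chr3:95900297-95900326 (Car14, minus). Those of the binding proteins Car10 and Car11 lie at chr11:93490597-93490626 (plus) and chr7:45702539-45702568 (plus). Each window is within 1 coding exon. The letters are those of the reference genome and were not read from these mice.

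Some facts of the libraries bear on what follows. Tmem106b averaged 7.53 ± 0.08 in KO brains, 8.58 ± 0.03 in HET brains and 9.17 ± 0.07 in WT brains (SD, n = 10 each), in the order of the labels. Read depth is unknown, since these are normalized values, so precision is judged from the spread between mice. The upper quartile was 6.34 in all libraries, but the lower quartile lay between -1.20 and -0.29 in males and between -0.41 and -0.07 in females. Markers of brain cells were present. Across the 30 libraries the mean was 10.7 over 6 neuronal genes and 9.64 over 7 astrocyte genes. Such genes do not tell cerebral hemispheres from cerebellum. Pcp2 and Slc1a6, genes known for cerebellar Purkinje cells, averaged 8.43 and 8.42. In whole tissue, fewer cells of a type and less RNA per cell cannot be told apart.

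By level, the 8 genes spanned from 10.72 for Car8 to 5.99 for Car12, as means over the 30 libraries. Car2 followed Car8 at 10.13, then Car11 at 9.36, Car4 at 8.36, Car10 at 8.13, Car7 at 6.74 and Car14 at 6.56. Car8 exceeded Car2 in 29 of 30 libraries, with overlapping ranges. Car4 exceeded Car10 in all 30, although their ranges over libraries overlapped as well, and Car7 exceeded Car14 in 26. The ranges of Car2 and Car11, of Car11 and Car4, and of Car10 and Car7 did not overlap. At the low end, Car14 exceeded Car12 in all 30 libraries, again with overlapping ranges.

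Between KO and WT brains, Car2 was lower and Car4 higher, while the other 6 genes did not pass. Of the 23695 genes tested, 1.00% passed in either direction, 0.279% higher and 0.722% lower in KO. Since this contrast was used in the choice of the genes, nothing is read from 2 of 8. Nor is anything read from the counts in other fits of it: 3 (Car2, Car4 and Car12) beside 1.28% of all genes with libraries weighted by their quality, 3 (the same genes) beside 2.03% in cohort 1 alone, 0 beside 0.0169% in cohort 2 alone, 0 beside 0.0633% in males alone and 1 (Car8) beside 0.0549% in females alone. The median fitted difference over the 8 genes was -0.04, beside 0.01 over all genes tested, and 6 of the 8 differences were below 0.

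Car2 (chr3:14886273-14900770) was measured at 9.77, 9.97, 10.00, 10.04, 10.08 and 10.12 in the KO brains of cohort 1, and at 9.90, 10.05, 10.15 and 10.16 in those of cohort 2. HET brains ran from 10.04 through a median of 10.13 to 10.22. WT brains gave 10.09, 10.17, 10.22, 10.24, 10.27 and 10.31 in cohort 1 and 10.19, 10.25, 10.28 and 10.34 in cohort 2. All 10 KO brains were below the WT mean and 7 were below every WT brain; in cohort 2, though not in cohort 1, the KO and WT values did not overlap, as for 1.09% of genes in this direction in cohort 2. The means were 10.03 ± 0.12 in KO, 10.14 ± 0.06 in HET and 10.24 ± 0.07 in WT brains (SD, n = 10 each). The fitted KO minus WT difference was -0.21 ± 0.04 (SE), or 13.5% lower in KO, with a 95% interval from -0.28 to -0.14. Taken within cohorts, KO minus WT was -0.22 in cohort 1 and -0.20 in cohort 2. Without KO replicate 9, the brain at 9.90, the cohort 2 value was -0.15. That brain averaged 11.63 over 5 genes of red blood cells, beside a WT mean of 8.90.

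The intermediate place of Car2 in HET brains was measured in mice that the KO against WT contrast did not use, although HET against WT shares the WT brains. All 10 HET brains were below the WT mean, but 9 of the 10 lay inside the WT range. HET minus WT was -0.09 ± 0.04 (SE), which did not pass (limma, adjusted p = 0.768, with a 95% interval from -0.16 to -0.01). KO minus HET, which shares the KO brains, was -0.12 ± 0.04 and did not pass either (adjusted p = 0.221). The distance of HET brains from the midpoint of KO and WT was 0.02 ± 0.03 (95% interval -0.05 to 0.08), a contrast added after these values were seen. A straight line through the number of deleted copies gave -0.10 ± 0.02 per copy.

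**Figure D1:**
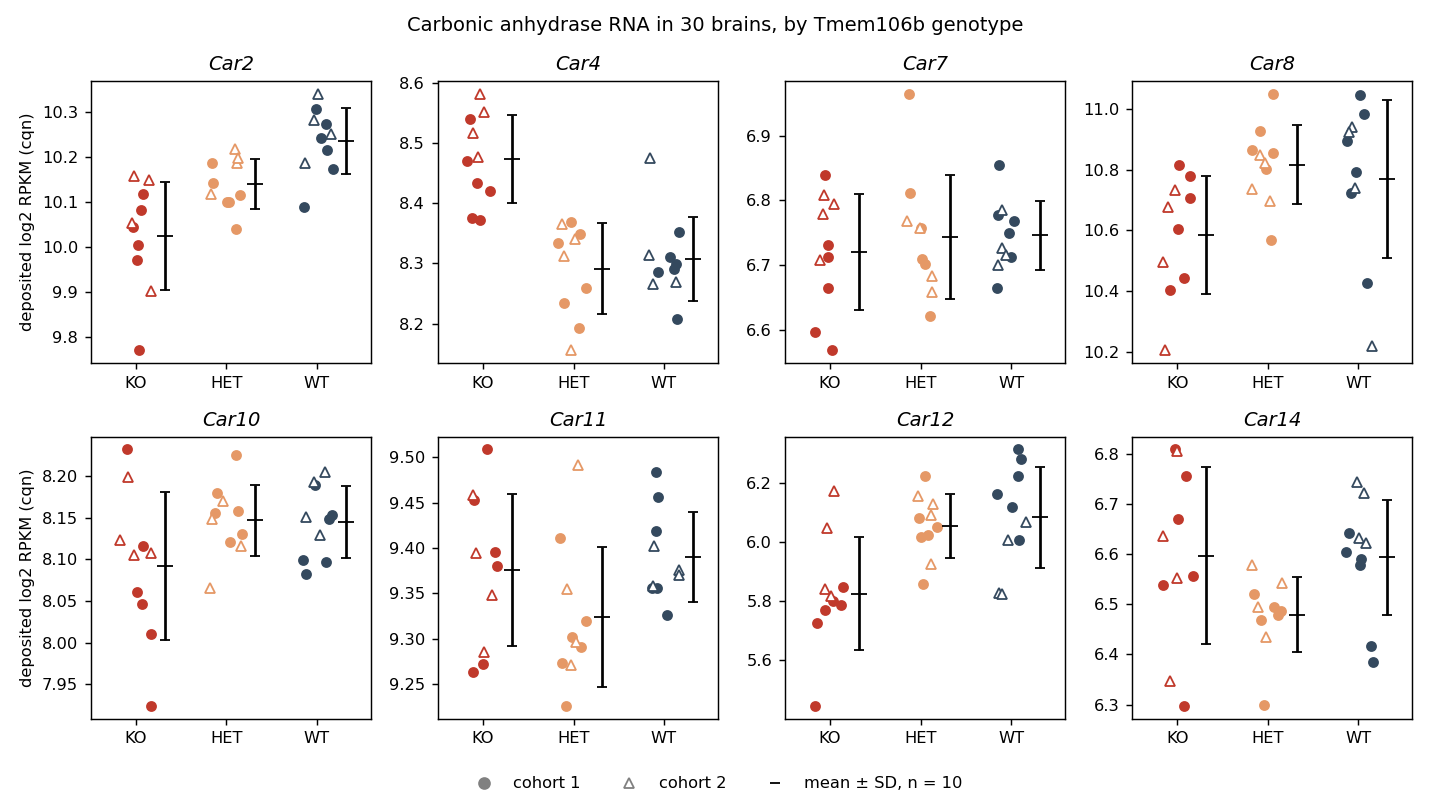
Deposited log2 RPKM of each of the 8 genes in every library, with KO, HET and WT from left to right and the mean ± SD (n = 10) beside the points. For Car4 the 10 KO points lie above the 10 HET points, while for Car2 the HET mean of 10.14 lies between the KO mean of 10.03 and the WT mean of 10.24.

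Genes of myelin moved with Car2. The mean over 14 myelin genes was 8.97 ± 0.08 in KO, 9.12 ± 0.05 in HET and 9.21 ± 0.06 in WT brains, with ranges of 8.85 to 9.11, 9.05 to 9.21 and 9.09 to 9.29. Of the 14, 13 passed as lower in KO than in WT, as 0.722% of all genes tested did. Among them were Opalin (-0.49), Ermn (-0.31), Mal (-0.31) and Cnp (-0.29). The list was chosen with earlier results of these data known, so this count is a description. None of the 14 was near 0 in level, the lowest averaging 6.79. In Car2 minus the myelin mean, KO brains averaged 1.06 ± 0.07, HET brains 1.02 ± 0.06 and WT brains 1.03 ± 0.07, a KO minus WT difference of 0.03 that was smaller than the SD within each genotype. By cohort that difference was 0.01 and 0.05. Whether Car2 changed within oligodendrocytes was not tested. Among the lists of other cells, Gfap (0.22) passed as higher of 7 astrocyte genes and C1qb (0.18) as higher of 6 microglial genes. As whole lists these did not rise: the median was -0.001 over the astrocyte genes, 4 of them below 0. It was -0.02 over the microglial genes, 4 of them below 0. None of 6 neuronal genes passed (limma, with 1 at an unadjusted p under 0.05). Of all genes tested 0.279% passed as higher, and these counts are descriptions too.

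The genes whose values over the 30 libraries were most like those of Car2 included other oligodendrocyte genes. Pearson's r was 0.86 for Ugt8a, which makes the galactolipids of myelin, 0.84 for Lpar1, a lysophosphatidic acid receptor, and 0.84 for Tmem63a, an ion channel. It was 0.82 for Itgb4, an integrin subunit, and 0.82 for Myrf, the transcription factor that switches on myelin genes. Within cohort 1 (18 libraries) the 5 values lay between 0.78 and 0.89, and within cohort 2 (12 libraries) between 0.75 and 0.89. These are descriptions of libraries that share genotype differences, not tests.

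For Car4 (chr11:84957786-84966044) the HET mean lay near the WT mean, a place that was not tested against that of Car2. KO brains gave 8.37, 8.38, 8.42, 8.43, 8.47 and 8.54 in cohort 1 and 8.48, 8.52, 8.55 and 8.58 in cohort 2. HET brains gave 8.19, 8.23, 8.26, 8.33, 8.35 and 8.37 in cohort 1 and 8.16, 8.31, 8.34 and 8.37 in cohort 2. WT brains gave 8.21, 8.29, 8.29, 8.30, 8.31 and 8.35 in cohort 1 and 8.26, 8.27, 8.31 and 8.47 in cohort 2. Every KO brain was above every HET brain, a separation in this direction that 0.00844% of all genes tested showed. The gap was narrow, between 8.370 in HET replicate 1 and 8.373 in KO replicate 1. All 10 KO brains were above the WT mean and 5 were above every WT brain, the overlap coming from the WT brain at 8.47. Within each cohort KO and WT did not overlap, as for 0.950% of genes in cohort 1 and 1.10% in cohort 2. In cohort 2 the nearest values were 8.477 in KO replicate 7 and 8.474 in WT replicate 1.

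The means of Car4 were 8.47 ± 0.07 in KO, 8.29 ± 0.08 in HET and 8.31 ± 0.07 in WT brains (SD, n = 10 each). KO minus WT was 0.17 ± 0.03 (SE, 95% interval 0.11 to 0.23), or 12.4% higher in KO, with 0.14 in cohort 1 and 0.20 in cohort 2. Without KO replicate 9, the brain at 8.58 with the high blood genes, the cohort 2 value was 0.18. KO minus HET was 0.18 ± 0.03 and passed (limma, adjusted p = 0.00479, higher in 10 of 10 KO brains than in any HET brain), as 0.118% of all genes did in either direction. It was the 1 gene of the 8 to do so. Its KO brains are those of the contrast used in the choice, so this call and the separation from HET brains are descriptions too. HET minus WT was -0.01 ± 0.03 (95% interval -0.07 to 0.05, adjusted p = 0.977). HET brains lay -0.10 ± 0.03 from the midpoint of KO and WT, which did not pass (adjusted p = 0.668). In that added contrast, for which 1365 of all genes had an unadjusted p under 0.05, 0.00422% of genes passed.

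**Figure D2:**
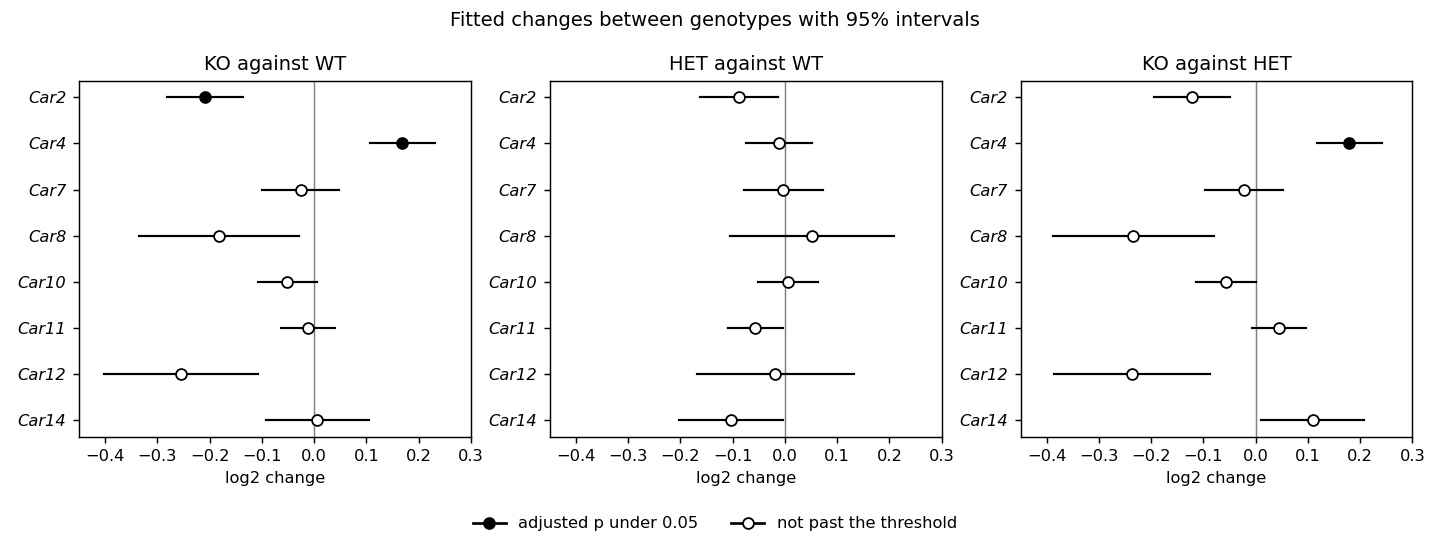
Fitted log2 differences of the 8 genes with 95% intervals, for KO against WT, HET against WT and KO against HET from left to right; filled points had an adjusted p under 0.05. Car2 (-0.21) and Car4 (0.17) are filled for KO against WT and Car4 (0.18) for KO against HET, and no gene is filled for HET against WT.

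No endothelial gene of the 9 examined passed as higher in KO brains. The mean over 9 endothelial genes was 6.64 ± 0.12 in KO, 6.69 ± 0.07 in HET and 6.73 ± 0.04 in WT brains. Of the 9, 1 passed, and it fell: Tek, the angiopoietin receptor, by 0.21. Of the 9, 7 were below 0 and 7 had an unadjusted p under 0.05, and the tight junction gene Cldn5 was at -0.44 (limma, adjusted p = 0.0567). As for the other lists, these values are a description. In Car4 minus the endothelial mean, KO brains averaged 1.84 ± 0.08, HET brains 1.60 ± 0.12 and WT brains 1.57 ± 0.08, so KO minus WT was 0.26, with 0.32 in cohort 1 and 0.17 in cohort 2. Car4 itself differed by 0.14 in cohort 1 and 0.20 in cohort 2. The endothelial mean differed by -0.18 and 0.03, and Cldn5 by -0.80 and 0.12, in the same order. The genes most like Car4 over the 30 libraries were Ndrg3 (r = 0.73), BC029722 (0.71), Mslnl (0.68), Dctn5, a dynactin subunit (0.67), and 0610011F06Rik (0.67). Within cohorts these 5 ranged from 0.58 to 0.76 in cohort 1 and from 0.62 to 0.92 in cohort 2.

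Car12 is a membrane enzyme with its catalytic part outside the cell, and its KO and WT values lay apart in cohort 1 and overlapped in cohort 2, a difference between cohorts that did not pass its test. In cohort 1, KO brains were at 5.44, 5.73, 5.77, 5.78, 5.80 and 5.85, HET brains at 5.86, 6.02, 6.02, 6.05, 6.08 and 6.22, and WT brains at 6.01, 6.12, 6.16, 6.22, 6.28 and 6.31. In cohort 2, KO brains were at 5.82, 5.84, 6.05 and 6.17, HET brains at 5.93, 6.09, 6.13 and 6.16, and WT brains at 5.82, 5.83, 6.01 and 6.07. Thus all 6 KO brains of cohort 1 were below all WT brains of that cohort, as for 1.09% of genes tested, and the cohort 2 groups overlapped. Over both cohorts the means were 5.83 ± 0.19 in KO, 6.06 ± 0.11 in HET and 6.08 ± 0.17 in WT brains, and KO minus WT was -0.25 ± 0.07.

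Fitted within cohorts, KO minus WT of Car12 was -0.46 ± 0.06 in cohort 1 and 0.04 ± 0.10 in cohort 2; the difference of means in cohort 2 was -0.03 without KO replicate 10. The difference between the cohorts was 0.51 ± 0.11 and did not pass over all genes (limma, adjusted p = 0.105, unadjusted p = 0.000149), although without KO replicate 4 it was 0.64 with an adjusted p of 0.0258. The KO and WT values behind it were known when the genes were chosen, so these p-values are a description. For this interaction 0.0338% of genes passed, none of them among the 8, and 2020 genes had an unadjusted p under 0.05, Car12 alone among the 8.

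Values of genes of the choroid plexus and other tissues at the brain surface are given by cohort beside those of Car12. The mean over 8 choroid plexus genes differed between KO and WT by -0.30 in cohort 1, with KO at 6.18 and WT at 6.48, and by 0.14 in cohort 2, with KO at 6.36 and WT at 6.21. Without KO replicate 5 the cohort 1 difference was -0.18, and without WT replicate 10 the cohort 2 difference was -0.06, so its sign rests on that brain. Folr1, the folate receptor of the choroid plexus, differed by -0.68 in cohort 1 and 0.17 in cohort 2, and by 0.00 in cohort 2 without WT replicate 10. Over 6 meningeal fibroblast genes the differences were -0.39 in cohort 1 and 0.15 in cohort 2, over the endothelial genes -0.18 and 0.03, and over 5 genes of red blood cells -0.25 and 0.77. The cohort 2 meningeal value was 0.09 without WT replicate 1. Without KO replicate 9 the cohort 2 value was -0.02 for the endothelial and 0.06 for the blood genes, and without KO replicate 1 the cohort 1 value was -0.13 for the blood genes. In the test of the difference between cohorts, none of the 8 choroid plexus genes passed (limma, 3 at an unadjusted p under 0.05) and none of the 5 blood genes (1 at that level). Of the 6 meningeal genes 1 passed, Igf2 (0.71), with 4 at that level, and of the 9 endothelial genes 1 passed, Cldn5 (0.90), with 4 at that level. None of the choroid plexus, meningeal or blood genes passed for KO against WT over both cohorts, with 1, 2 and 0 of them at an unadjusted p under 0.05. Car12 minus the choroid plexus mean differed by -0.15 in cohort 1 (-0.10 without WT replicate 3) and by -0.10 in cohort 2 (0.06 without WT replicate 10). The genes most like Car12 were Folr1 (r = 0.78) and Enpp2 (r = 0.77), a lysophospholipase made in choroid plexus among other cells. The part of these tissues in the Car12 values was not tested.

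**Figure D3:**
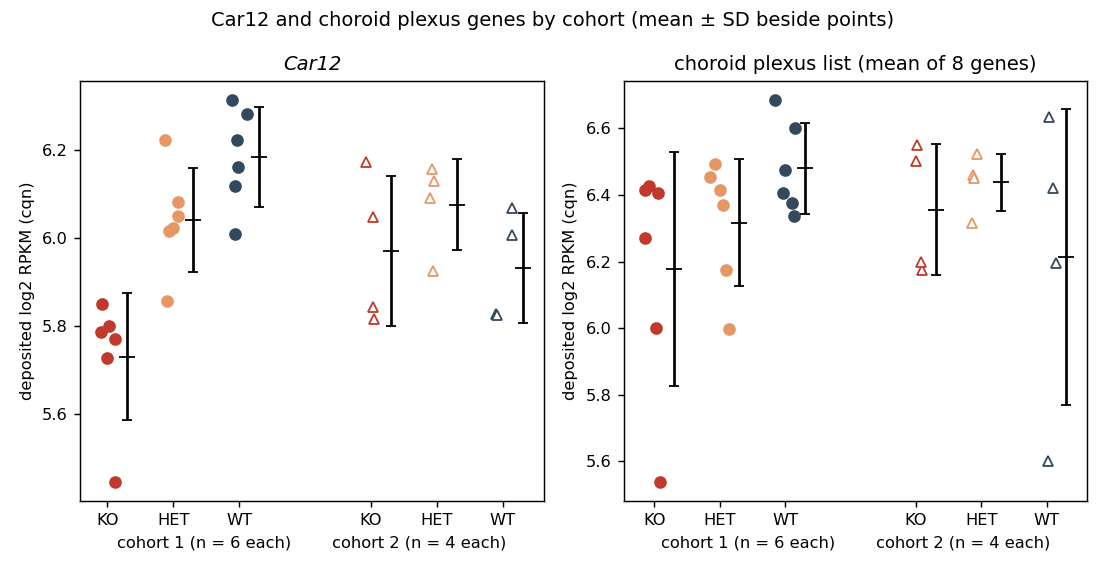
Car12 and the mean of the 8 choroid plexus genes in every library, split by cohort, with KO, HET and WT from left to right in each. In cohort 1 the Car12 points of KO brains (5.44 to 5.85) lie below those of WT brains (6.01 to 6.31), and in cohort 2 the groups overlap.

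Car14, like Car12 a membrane enzyme with an outward catalytic part, averaged 6.60 ± 0.18 in KO, 6.48 ± 0.07 in HET and 6.59 ± 0.11 in WT brains. KO brains ran from 6.30 to 6.81, HET brains from 6.30 to 6.58 and WT brains from 6.39 to 6.74, and the groups overlapped throughout. KO minus WT was 0.01 ± 0.05 and HET minus WT -0.10 ± 0.05 (limma, adjusted p = 0.785), with all 10 HET brains under the WT mean. Car14 overlaps the gene Aph1a over 521 bases. Aph1a, a gamma-secretase subunit with a mean of 7.61, was also the gene most like Car14 (r = 0.82). Since the strand setting of the counting is not known, reads of the shared stretch cannot be told apart, and Car14 is uncertain to that extent. Car7, a cytosolic enzyme of neurons, averaged 6.72 ± 0.09 in KO, 6.74 ± 0.10 in HET and 6.75 ± 0.05 in WT brains, with KO minus WT at -0.03 ± 0.04 and HET minus WT at 0.00 ± 0.04 (adjusted p = 0.994).

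Among the binding proteins, Car8 varied most between mice. Car8 binds the inositol trisphosphate receptor Itpr1 and is abundant in Purkinje cells of the cerebellum. KO brains ran from 10.20 through a median of 10.64 to 10.81, HET brains from 10.57 through 10.84 to 11.05, and WT brains from 10.22 through 10.84 to 11.05. The groups overlapped, with 8 of 10 KO brains below the WT mean and 1 below every WT brain. Its SD within genotypes was 0.20, beside a median of 0.07 over the 283 genes within 0.5 of its level. The means were 10.59 ± 0.20 in KO, 10.82 ± 0.13 in HET and 10.77 ± 0.26 in WT brains. KO minus WT was -0.18 ± 0.07, HET minus WT 0.05 ± 0.08 (limma, adjusted p = 0.948) and KO minus HET -0.23 ± 0.08 (adjusted p = 0.287), and the last 2 did not pass. Fitted within each sex, KO minus WT was -0.12 in males and -0.29 in females, and the difference between the sexes did not pass (0.16 ± 0.15, adjusted p = 0.874).

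Purkinje cell genes varied with Car8 from library to library. Those most like it were Rgs8 (r = 0.94, with 0.92 in cohort 1 and 0.96 in cohort 2) and Calb1, a calcium buffer (0.93, with 0.93 and 0.92), both known for Purkinje cells. The mean over 6 Purkinje cell genes was 9.40 in KO, 9.50 in HET and 9.50 in WT brains. None of the 6 passed for KO against WT (limma), all 6 were below 0, and 3 had an unadjusted p under 0.05; the list holds genes that other neurons also express, and Itpr1 stands in it too. In Car8 minus that mean, KO brains averaged 1.19 ± 0.13, HET brains 1.32 ± 0.07 and WT brains 1.27 ± 0.17. The labels do not say how much cerebellum each sample held, and its part in the Car8 values was not tested.

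**Figure D4:**
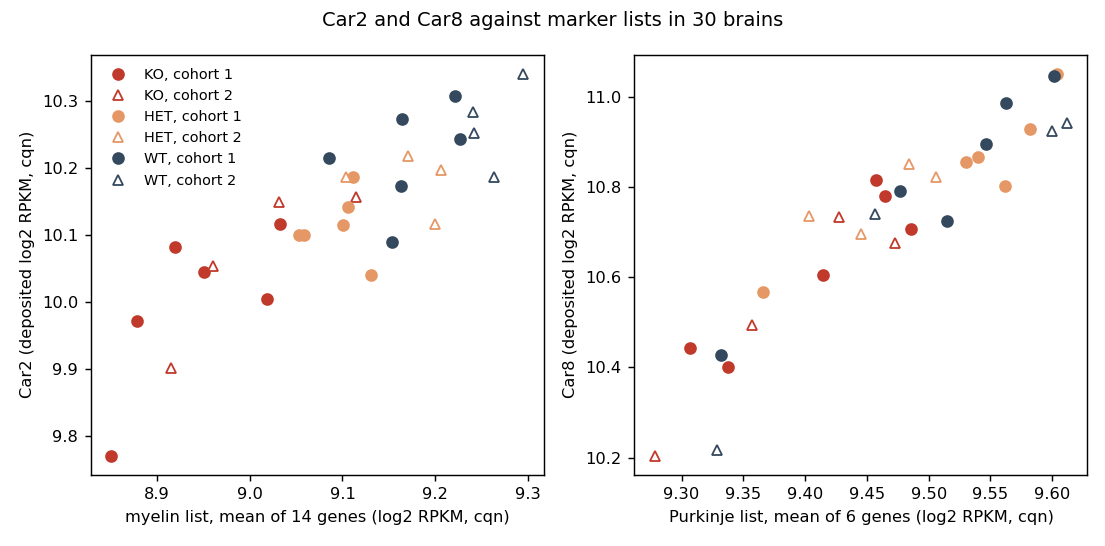
Each library's Car2 value against the mean of the 14 myelin genes, and its Car8 value against the mean of the 6 Purkinje cell genes, on the deposited log2 scale, with KO, HET and WT libraries in different colours. KO libraries hold the low end of both Car2 (9.77) and the myelin mean (8.85), while for Car8 the lowest KO (10.20) and WT (10.22) libraries lie close together.

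Car10 and Car11, secreted binding proteins of the synaptic neurexins, had SDs within genotypes of 0.06 and 0.07, beside medians of 0.07 and 0.07 over genes of like level. Car10 averaged 8.09 ± 0.09 in KO, 8.15 ± 0.04 in HET and 8.14 ± 0.04 in WT brains, with KO minus WT at -0.05 ± 0.03 and HET minus WT at 0.01 ± 0.03 (limma, adjusted p = 0.983). Car11 averaged 9.38 ± 0.08 in KO, 9.32 ± 0.08 in HET and 9.39 ± 0.05 in WT brains, with KO minus WT at -0.01 ± 0.02. In HET brains 7 of 10 Car11 values were below every WT value, and HET minus WT was -0.06 ± 0.03, which did not pass (adjusted p = 0.768). The genes most like Car10 were Prkcz, an atypical protein kinase C (r = 0.77), and Gpr39, a zinc receptor (0.74). Those most like Car11 were Ankrd13b (0.70) and Trim5 (0.67), and those most like Car7 were Slc20a1, a phosphate carrier (0.68), and Tmc3 (0.68).

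For HET against WT as a whole, none of the 8 genes passed, and 3 had an unadjusted p under 0.05 (Car2, Car11 and Car14). Over all genes, 0.00422% passed, which is 1 gene, and 1497 had an unadjusted p under 0.05. The median over the 8 genes was -0.01, beside 0.00 over all genes.

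Sex was a comparison that the choice of the genes did not use. None of the 8 passed between 15 males and 15 females (limma), against 0.333% of all genes, and 3 of the 8 had an unadjusted p under 0.05, as had 2967 of all genes. Car11 averaged 9.32 ± 0.05 in males and 9.41 ± 0.07 in females, and all 15 males were below the female mean. Its fitted difference, male minus female, was -0.08 ± 0.02 (adjusted p = 0.0677). Car8 averaged 10.63 ± 0.24 in males and 10.82 ± 0.16 in females, with 12 of 15 males below the female mean, and differed by -0.19 ± 0.06 (adjusted p = 0.166). Car14 ran the other way, at 6.62 ± 0.12 in males and 6.50 ± 0.13 in females, with 12 of 15 males above the female mean and a difference of 0.12 ± 0.04 (adjusted p = 0.175).

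Within each genotype the male minus female signs of these genes were alike, and none of them passed there (limma). The genes were named for their sex difference in these same libraries, so the like signs are a description. Car11 differed by -0.11 in KO, -0.05 in HET and -0.06 in WT brains, and Car14 by 0.26, 0.03 and 0.16. For Car8 the values were -0.18 in KO, -0.10 in HET and -0.45 in WT brains. The low end of the libraries also differed by sex, as given above, and the means of Car8, Car11 and Car14 all lie above the upper quartile of 6.34. The part of that shift in the sex differences was not tested. For KO against WT by sex, none of the 8 genes passed (limma), none had an unadjusted p under 0.05, and 0% of all genes passed, while 1682 had an unadjusted p under 0.05. Car2 differed between KO and WT by -0.20 in males and -0.23 in females, and Car4 by 0.19 in males and 0.15 in females.

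**Figure D5:**
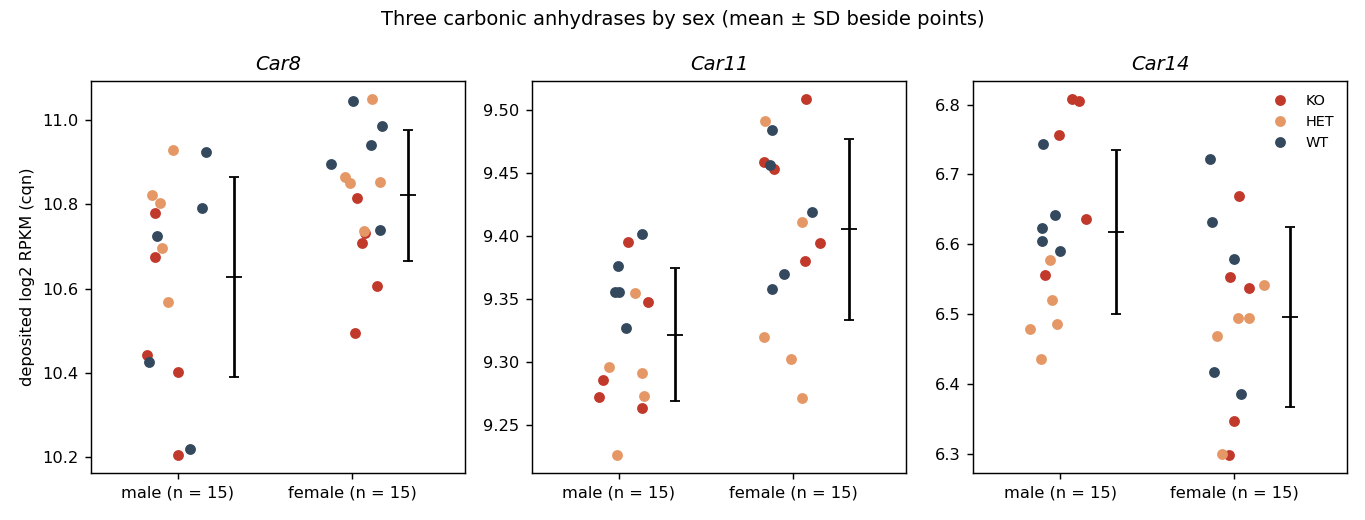
Car8, Car11 and Car14 in the 15 male (left) and 15 female (right) brains, coloured by genotype, with mean ± SD beside the points. Male means were 10.63, 9.32 and 6.62 and female means 10.82, 9.41 and 6.50 on the deposited log2 scale, and the ranges overlap for all 3 genes.

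Cohort and RNA integrity were described alongside. None of the 8 genes passed between cohort 2 and cohort 1 (limma), although 17.5% of all genes did, and 7198 genes had an unadjusted p under 0.05, Car2 among them as the 1 gene of the 8. The differences, cohort 2 minus cohort 1, ran from -0.09 for Car8 to 0.07 for Car14, with 0.07 for Car2 and 0.05 for Car4. For the slope on RNA integrity number, which ran from 8.5 to 10, no gene of the 8 passed or had an unadjusted p under 0.05, against 0.0633% of all genes passing and 2431 at the unadjusted threshold. For the slope per deleted copy, Car2 was at -0.10 and Car4 at 0.08, both past the threshold, beside 1.02% of all genes. With equal groups this slope mostly restates the KO minus WT difference used in the choice, so it is a description as well.

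In the rest of the family, Car15 averaged 6.21, above Car12, and the others lay below all 8 genes: Car13 at 4.39, Car5b 3.61, Car9 3.59, Car5a 1.66 and Car3 1.11. Car1 at -0.46 and Car6 at -2.21 were not tested because of their low values. None of the 6 tested passed for KO against WT (limma), and 1 had an unadjusted p under 0.05: Car3, a cytosolic enzyme of muscle and fat, which averaged 1.47 ± 0.37 in KO and 0.96 ± 0.46 in WT brains and differed by 0.52 ± 0.19. Car15 shares 3088 bases with Gm20518 (mean 7.53), and Car5a and Car9 also overlap other listed genes, so the values of these 3 are uncertain.

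Of the transporters and partners that work with these proteins, 1 passed for KO against WT, where 1.00% of all genes tested passed. Their lists were chosen with earlier results of these data known. Counts and p-values of this contrast are therefore a description, and nothing is read from 1 call. None of 13 bicarbonate transporters passed (limma), and 2 had an unadjusted p under 0.05. The 2 with the highest levels were Slc4a10 (0.00 ± 0.02), a neuronal sodium bicarbonate exchanger, and Slc4a4 (0.01 ± 0.03), the sodium bicarbonate cotransporter of astrocytes. Among 14 proton exchangers and lactate carriers, Slc16a1 fell by 0.18 ± 0.04 (limma, adjusted p = 0.0237), at 6.88 ± 0.16 in KO, 7.03 ± 0.09 in HET and 7.06 ± 0.10 in WT brains. By cohort KO minus WT was -0.25 in cohort 1, with KO at 6.77 and WT at 7.02, and -0.08 in cohort 2, with KO at 7.03 and WT at 7.12; the difference between cohorts did not pass (0.17 ± 0.08, adjusted p = 0.581). Slc16a1 is the lactate carrier of oligodendrocytes, endothelium and other cells. Its partner Bsg (-0.05 ± 0.02), the gene of that list with the highest level, did not pass.

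None of 9 binding partners of Car8, Car10 and Car11 passed (limma), and 1 had an unadjusted p under 0.05: Itpr1, at -0.18 ± 0.05 with an adjusted p of 0.0989. Nlgn2, a neurexin ligand at inhibitory synapses, differed by 0.00 ± 0.02. None of 5 chloride cotransporters passed, with 1 at an unadjusted p under 0.05, and the neuronal chloride exporter Slc12a5 differed by -0.04 ± 0.03. No gene of these 4 lists passed for HET against WT.

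Between cohort 2 and cohort 1, where 17.5% of all genes passed, 3 of the 13 bicarbonate transporters were lower: Slc4a8 (-0.15), Slc4a7 (-0.10) and Slc4a10 (-0.09). Among the proton exchangers and lactate carriers 4 were higher, Slc9a2 (0.16), Slc16a1 (0.16), Slc9a9 (0.15) and Bsg (0.07), and 3 were lower, Slc9a7 (-0.56), Slc16a7 (-0.30) and Slc9a3 (-0.27). Slc12a5 was lower by 0.06 on the log2 scale.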

How the data were processed

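RNA from 30 mouse brains was sequenced. The submitters' processing notes name TopHat2 2.0.12, Bowtie 1.1.0 and the build mm10. How reads were counted, with which annotation and strand setting, and how genes were filtered is not given in the sources used here. By the file's name, the authors deposited 1 table of log2 RPKM values adjusted by conditional quantile normalization, a step that evens out length and GC trends and draws libraries together, so small global shifts would not be seen. No pseudocount was added.

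Groups came from the genotype labels, and replicate numbers follow the sample order and pair nothing. Fits used limma 3.58.1 in R 4.3.3, with genotype, sex, cohort and RNA integrity number, an intensity trend and Benjamini-Hochberg adjustment over 23695 genes with a mean above 0. The fit was tested on simulated data with known changes. The alternatives were other filters, covariates, scalings, weights, subsets and leaving out each mouse. The 8 genes, the other family genes and the lists were chosen with earlier results of these data known. Named were the 8 genes, the rest of the family, list genes that passed with up to 2 others of high level, and the genes most alike by Pearson's r: 5 each for Car2 and Car4 and 2 each for the others. Other genes were named as examples, and the contrast of HET with the midpoint and the cohort values without 1 mouse were added, after values were seen. Coding sequences are from GENCODE M21. The sequence window of Car8 and 2 list genes that the naming rule would give are not reported here.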

Additional observations from a re-analysis of the deposited data

Results flagged for a closer look

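Car14 in HET replicate 4, a female of cohort 1, was 6.30 on the deposited log2 scale, and the next HET brain was at 6.43. The gap to the nearest brain was 0.487 of the range of the 10 HET values, above the critical value of 0.466 for 10 samples. It was 1 of 24 groups of 10 brains examined (8 genes in 3 genotypes), and chance flags about 1 in 20.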

How the results depend on the processing

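No paired analysis was possible because the replicate numbers follow sample order and the labels pair no mice across genotypes. Depth is unknown and limits low genes by an amount that cannot be given.

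Car2 (-0.23 to -0.20) and Car4 (0.14 to 0.20) kept their KO minus WT direction under all 15 alternatives and passed in 12, and they passed in all 30 fits without 1 mouse. For KO against WT the 8 genes gave 0 calls in cohort 2 alone, 0 in males alone and 1 in females alone (Car8, -0.29), where n per genotype was 4, 5 and 5. For KO against HET there were 0 calls in cohort 1, cohort 2, females or males alone, and for the slope per copy 0 in cohort 2, females or males alone. Fewer mice entered each of these fits. For Car12, -0.25 for KO against WT as reported, the value was past the threshold with array weights (-0.28), in cohort 1 alone (-0.46) and without WT replicate 1, WT replicate 10, KO replicate 7 or KO replicate 10; it ran from -0.30 to -0.21 over the fits without 1 mouse. These KO against WT calls, and those of the slope, describe values known when the genes were chosen. The KO against HET calls share the KO brains and are descriptions too. For male against female, 3 genes passed with no filter on low values (Car8, 0.0173; Car11, 0.00216; Car14, 0.0192), when 26.1% of all genes passed; the cause was not tested.

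Leaving out 1 mouse at a time, the number of the 8 genes called ran from 2 to 3 for KO against WT and for the slope per copy. It was 1 for KO against HET in each fit. It ran from 0 to 1 for cohort (Car4 without HET replicate 2, 0.07, adjusted p = 0.0363), for sex (Car11 without HET replicate 2, HET replicate 6 or WT replicate 1) and for KO against WT by cohort (Car12 without KO replicate 4). HET against WT and against the midpoint gave 0 calls throughout. No difference that had passed changed sign under any alternative run.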
